A study of Mus musculus with 2 samples.

Results

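The genes described here carry out or record the first rearrangement of a T-cell receptor: Rag1 and Rag2, Dntt, Ptcra, the beta chain constant genes Trbc1 and Trbc2, and the alpha chain constant gene Trac. The members were named as a list, and all 7 are among the 28692 genes of the deposited tables. They were followed in 2 droplet libraries, FL001 and FL002, of wild type CD1 mouse cells. Fetal livers of E13.5 embryos were depleted of TER-119+ red cells, and Sca-1+ cKit+ haematopoietic stem and progenitor cells (HSPCs) were sorted and placed at 1000 cells per well on plates coated with the Notch ligand DL4 at 10 µg/mL and the adhesion molecule VCAM-1 at 2.32 µg/mL. Both libraries share this treatment, no control condition is labelled, and the study pooled cells taken at sorting and at later days of culture, so the day of each library is not given. The study used the cells to follow the early steps of T-cell development.

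Counts are unique molecular identifiers (UMIs), 1 for each captured RNA molecule. Barcodes entered with 1500 UMIs or more, 500 genes or more and no more than 10% of UMIs from mitochondrial genes, 1788 in FL001 (median 7722 UMIs) and 4100 in FL002 (median 4752.5 UMIs). The libraries shared 10 of these barcodes. The 5 gates were drawn on genes outside the list. The progenitor gate held cells with at least 2 UMIs of Lmo2 and Mef2c together and at most 1 of Cd3g (428 cells in FL001 and 724 in FL002). The Cd3g-low gate had at most 2 UMIs of Cd3g and at most 1 of Lmo2 and Mef2c (381 and 1134 cells), and the Cd3g gate had at least 3 UMIs of Cd3g and none of Il2ra (327 and 873 cells). The Il2ra gate had at least 1 UMI of Il2ra and no limit on Cd3g (738 and 1668 cells). The Lef1+Bcl11b gate had at least 2 UMIs of these commitment genes together (357 and 250 cells). The gates overlap, with 446 and 558 cells in more than 1 of them, so levels are also given with each cell in the last gate it meets, called the exclusive gates. Levels are counts per 1000000 UMIs (CPM) of the summed cells of a gate, each with a 95% exact Poisson interval. For the share of cells with a transcript the interval is an exact binomial one, and neither interval goes beyond counting error. With 1 library for each set of cells there is no replicate, no test was made, and each library is given alone.

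The gates were checked against markers that did not draw them. Cd34, Flt3, Meis1, Hlf and Mecom, markers of progenitors, were all 5 at least 4-fold lower in the Lef1+Bcl11b gate than in the progenitor gate in both libraries, beside 3.36% of all tested genes in FL001 and 3.08% in FL002. Of the T lineage markers Tcf7, Gata3, Cd3e, Cd3d, Il7r and Thy1, 6 of 6 were at least 4-fold higher in FL001, beside 3.61% of tested genes, and 5 of 6 in FL002 (not Il7r), beside 3.3%. Cd3e, Cd3d and Thy1 were under 10 CPM in the progenitor gate. They were tested only through their level in the Lef1+Bcl11b gate, which partly or fully set their calls. The fraction of kept cells in the Lef1+Bcl11b gate was 19.97% in FL001 and 6.10% in FL002. The Cd3g-low gate was a mixture. As drawn, its summed level of Elane, Prtn3, Ctsg, S100a8, S100a9 and Lyz2, granulocyte or monocyte genes, was 3225 CPM in FL001 and 782 CPM in FL002. The progenitor gate held 1406 and 860 CPM of them, and the Lef1+Bcl11b gate 12.9 and 12.2 CPM. Ratios to or from the Cd3g-low gate include such cells, and their part was not tested.

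A T-cell receptor gene is assembled from V, D and J segments. The RAG1 and RAG2 proteins form the recombinase that cuts DNA beside these segments, and the terminal transferase encoded by Dntt adds untemplated bases at the junctions. In the thymus the beta locus rearranges before the alpha locus. A beta chain, which ends in the constant region of Trbc1 or Trbc2, then pairs with the invariant pre-T alpha chain encoded by Ptcra, and this pre-receptor is tested before the alpha chain, which ends in the constant region of Trac, is made. Dntt is known to be low in fetal lymphocytes. The constant genes of the beta locus are also transcribed before rearrangement, and a tag from the 3′ end of a transcript does not show whether a V segment has been joined.

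The 150 bases upstream of the RefSeq start of Rag1, Rag2, Ptcra and Dntt (assembly GRCm38.p6) are shown because the first 3 of these genes rose together in the Lef1+Bcl11b gate while Dntt stayed almost undetected. Capitals mark the E-box letters CANNTG, the site class that E proteins recognise. Both the Rag1 and Ptcra genes lie on the minus strand, and Rag1 and Rag2 are convergent neighbours on chromosome 2. Each sequence is written 5′ to 3′ on the strand of the gene, Rag1 at chr2:101649533-101649682 (minus strand), Rag2 at chr2:101624562-101624711 (plus strand), Ptcra at chr17:46763713-46763862 (minus strand) and Dntt at chr19:41029125-41029274 (plus strand).
Rag1: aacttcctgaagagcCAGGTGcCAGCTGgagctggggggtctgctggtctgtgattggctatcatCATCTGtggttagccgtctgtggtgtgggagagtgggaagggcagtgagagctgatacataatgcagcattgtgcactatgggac
Rag2: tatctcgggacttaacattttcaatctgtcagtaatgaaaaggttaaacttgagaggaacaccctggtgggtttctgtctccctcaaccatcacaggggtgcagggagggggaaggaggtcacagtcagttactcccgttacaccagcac
Ptcra: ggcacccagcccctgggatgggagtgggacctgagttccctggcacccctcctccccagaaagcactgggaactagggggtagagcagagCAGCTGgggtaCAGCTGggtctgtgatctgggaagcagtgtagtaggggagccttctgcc
Dntt: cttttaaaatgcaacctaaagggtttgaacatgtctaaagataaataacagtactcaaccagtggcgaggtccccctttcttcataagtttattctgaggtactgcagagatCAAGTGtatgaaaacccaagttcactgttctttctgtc

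Rag1 held 3 E-box matches in this window, Ptcra 2, Dntt 1 and Rag2 0. Of 27025 RefSeq promoters cut to the same length, 47.4% held at least 1. The narrower form CACCTG or CAGGTG, found in 10.5% of promoters, occurred once here, in Rag1, where it is also 1 of the 3 E-box matches. Of the other letters searched on both strands, GATA (36.1% of promoters) was present in Rag1, Rag2 and Dntt, TGTGGT (8.53%) in Rag1, GGAA (80.8%) in Rag1, Rag2 and Ptcra, and TTCAAAG (2.49%) in none of the 4. These are matches of letters and not measured binding sites.

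The members fell into 3 kinds by abundance and pattern. Trbc2 and Trbc1 were found in most gates and rose early, Ptcra, Rag1 and Rag2 were concentrated in the Lef1+Bcl11b gate, and Dntt and Trac were almost absent. Between the end gates, 4 of the 5 members with at least 10 CPM in either gate (Rag1, Rag2, Ptcra and Trbc1) were at least 4-fold higher in the Lef1+Bcl11b gate in each library. The same call was made for 3.61% of the 7969 genes tested in FL001 and for 3.3% of 7878 in FL002, and the median log2 ratio of all tested genes was near 0 (−0.04 in FL001). Rag1, Rag2 and Ptcra were under 10 CPM in the progenitor gate and entered only through the Lef1+Bcl11b gate. Their calls were thus partly or fully set by that limit. Trbc1 and Trbc2 passed it in both gates.

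**Figure D1:**
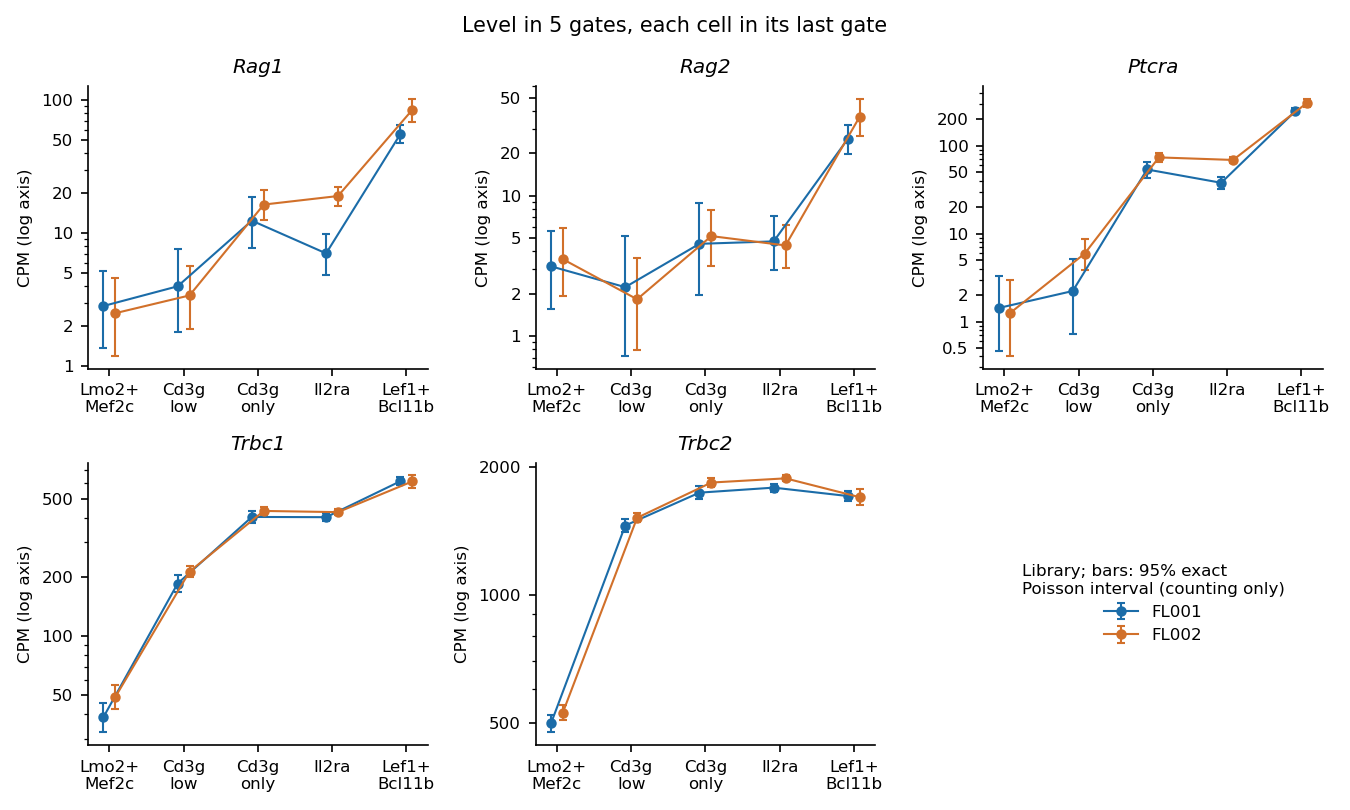
CPM on a log axis of Rag1, Rag2, Ptcra, Trbc1 and Trbc2 in the 5 exclusive gates, with points for each library and bars for the 95% exact Poisson interval (counting error only), the gate marked Cd3g only being the Cd3g gate. Rag1, Rag2 and Ptcra reach their highest level in the Lef1+Bcl11b gate, at 55.7, 25.4 and 249.2 CPM in FL001, while Trbc2 is already at 1455 CPM in the Cd3g-low gate.

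Rag1, the catalytic part of the recombinase, was low in the progenitor gate and rose in the Lef1+Bcl11b gate. In FL001 it measured 2.97 CPM (1.48 to 5.31, 11 UMIs) in the progenitor gate and 55.7 CPM (47.4 to 65.0, 160 UMIs) in the Lef1+Bcl11b gate. The FL002 values were 3.06 CPM (1.63 to 5.23, 13 UMIs) and 84.6 CPM (69.1 to 103, 104 UMIs). Both ratios were far from 1, at 18.8-fold (10.2 to 38.3) in FL001 and 27.7-fold (15.5 to 53.7) in FL002.

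The middle gates differed from these ends, and the way the gates were drawn mattered most there. As drawn, the Cd3g gate held 31.5 CPM of Rag1 in FL001 and 27.7 CPM in FL002, and the Il2ra gate held 19.4 and 22.1 CPM. Once the cells that also met the Lef1+Bcl11b gate were moved to it, the Cd3g gate held 12.5 CPM (7.81 to 18.9) and 16.5 CPM (12.7 to 21.0), and the Il2ra gate held 7.08 CPM (4.87 to 9.94) and 19.1 CPM (16.1 to 22.4). The step from the exclusive Cd3g-low gate to the Cd3g gate was 3.11-fold (1.38 to 7.68) in FL001 and 4.81-fold (2.71 to 9.10) in FL002, and that from the Il2ra gate to the Lef1+Bcl11b gate was 7.87-fold (5.38 to 11.8) and 4.43-fold (3.42 to 5.74). In order of level, the progenitor and Cd3g-low gates had overlapping intervals, as did the Cd3g and Il2ra gates in each library. In FL001 the interval of the Il2ra gate also overlapped those of the progenitor and Cd3g-low gates. The Lef1+Bcl11b gate stood clear of all others.

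Rag2, the partner of Rag1 in the recombinase, was also highest in the Lef1+Bcl11b gate, with fewer counts. Its progenitor level was 2.97 CPM (1.48 to 5.31, 11 UMIs) in FL001 and 3.295 CPM (1.80 to 5.53, 14 UMIs) in FL002. The Lef1+Bcl11b gate held 25.4 CPM (19.9 to 31.9, 73 UMIs) and 36.6 CPM (26.7 to 49.0, 45 UMIs), which is 8.56-fold (4.51 to 17.9) and 11.1-fold (5.99 to 21.9) more. All 4 earlier exclusive gates lay between 2.22 and 4.72 CPM in FL001 and between 1.82 and 5.14 CPM in FL002. The intervals of these 4 gates overlapped within each library, and the step from the Cd3g-low to the Cd3g gate in FL002 was 2.82-fold (1.19 to 7.40). Among all kept cells, those with 1 UMI of Lef1 and Bcl11b, which lie outside the Lef1+Bcl11b gate, had more Rag2 than those with none, at 9.25 CPM (4.23 to 17.6) against 3.46 CPM (2.46 to 4.73) in FL001 and at 13.3 CPM (8.03 to 20.8) against 3.06 CPM (2.32 to 3.96) in FL002.

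In GENCODE M21 Rag1 and Rag2 overlap a further gene, B230118H07Rik, on the strand of Rag1 and opposite to Rag2. Reads of overlapping genes can be split between them, and the Rag1 and Rag2 values are uncertain to that extent. The level of B230118H07Rik moved the other way, from 78.9 CPM in the exclusive progenitor gate to 39.7 CPM in the Lef1+Bcl11b gate in FL001 and from 84.2 to 42.3 CPM in FL002. Its part in the counts of Rag1 and Rag2 was not tested. Ptcra overlaps Gm26904 on the opposite strand, and the other 4 members overlap no annotated gene there.

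Ptcra, the pre-T alpha chain, had the widest range of the members. In FL001 it rose from 1.35 CPM (0.438 to 3.15, 5 UMIs) in the progenitor gate to 249.2 CPM (231 to 268, 716 UMIs) in the Lef1+Bcl11b gate, a ratio of 185-fold (78.8 to 570). In FL002 it rose from 1.18 CPM (0.382 to 2.75, 5 UMIs) to 310.0 CPM (280 to 343, 381 UMIs), a ratio of 263-fold (112 to 816). The ratios rest on 5 UMIs in each progenitor gate, and their intervals are wide for that reason.

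Ptcra was well above its progenitor level in the exclusive Cd3g gate, whose cells have at most 1 UMI of Lef1 and Bcl11b together. From the exclusive progenitor to the Cd3g-low gate it went from 1.42 to 2.22 CPM in FL001, 1.56-fold (0.360 to 6.79), and from 1.26 to 5.93 CPM in FL002, 4.71-fold (1.78 to 15.7). The exclusive Cd3g gate held 53.8 CPM (43.5 to 65.8) in FL001 and 73.8 CPM (65.5 to 82.9) in FL002. Against the Cd3g-low gate this is 24.2-fold (10.0 to 76.2) and 12.5-fold (8.33 to 19.4). From the Cd3g to the Il2ra gate the level did not rise, with ratios of 0.705 (0.547 to 0.915) and 0.935 (0.809 to 1.08), and from the Il2ra to the Lef1+Bcl11b gate it rose again by 6.57-fold (5.56 to 7.78) and 4.49-fold (3.92 to 5.13). The Il2ra gate set no limit on Cd3g, and as drawn it shared 75 and 276 cells with the Cd3g-low gate. The part of these cells in the ratios was not tested. Among cells with at least 3 UMIs of Cd3g outside the Lef1+Bcl11b gate the libraries differed. In FL001 Ptcra was at 53.8 CPM with 0 UMIs of Il2ra and between 33.6 and 51.9 CPM with more. In FL002 it was at 73.8 CPM with 0 and between 66.7 and 116 CPM with more.

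At the step from the Cd3g-low to the Cd3g gate, 3 of the 4 members tested (Rag1, Ptcra and Trbc1) were at least 2-fold higher in each library, beside 2.65% of all tested genes in FL001 and 2.02% in FL002. From the Cd3g to the Il2ra gate 0 of 4 were, beside 0.578% and 0.0541%, and these 2 gates also differ in their limits on Cd3g. At the last step, from the Il2ra to the Lef1+Bcl11b gate, 3 of 5 (Rag1, Rag2 and Ptcra) were at least 2-fold higher, beside 2.76% and 2.48%. Rag1 and Ptcra were under 10 CPM in the exclusive Cd3g-low gate and entered that comparison only through the Cd3g gate. In the exclusive Il2ra gate Rag2 was under 10 CPM in both libraries and Rag1 in FL001. These entered the last step only through the Lef1+Bcl11b gate. All of these calls were thus partly or fully set by that limit.

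Trbc2, a constant gene of the beta chain, rose at the step from the progenitor to the Cd3g-low gate, as did Trbc1. In the progenitor gate it stood at 531 CPM (508 to 555) in FL001 and 564 CPM (542 to 587) in FL002, and in the Lef1+Bcl11b gate at 1707 CPM (1659 to 1755) and 1696 CPM (1624 to 1771), 3.21-fold (3.05 to 3.39) and 3.01-fold (2.83 to 3.19) more. Most of this difference was present in the exclusive Cd3g-low gate, at 1455 CPM (1405 to 1505) and 1517 CPM (1481 to 1554), from 498 and 528 CPM in the exclusive progenitor gate. From the Cd3g-low to the Cd3g gate it rose further, by 1.20-fold (1.14 to 1.26) and 1.21-fold (1.17 to 1.25). The Cd3g and Il2ra gates followed at 1739 and 1786 CPM in FL001 and at 1836 and 1879 CPM in FL002. From the Il2ra gate to the Lef1+Bcl11b gate Trbc2 was slightly lower, with ratios of 0.956 (0.922 to 0.990) and 0.903 (0.862 to 0.945).

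Trbc1, the other constant gene of the beta chain, rose over more steps than Trbc2. It went from 52.1 CPM (45.0 to 59.98) to 612 CPM (584 to 642) between the end gates of FL001 and from 55.1 CPM (48.2 to 62.6) to 611 CPM (568 to 656) in FL002, or 11.8-fold (10.1 to 13.7) and 11.1-fold (9.57 to 12.9). The exclusive Cd3g-low gate held 185 CPM (168 to 204) and 213 CPM (199 to 227), and the Cd3g gate 403 CPM (374 to 434) and 433 CPM (412 to 454). The Il2ra gate did not differ from the Cd3g gate beyond counting error, with ratios of 0.997 (0.914 to 1.09) and 0.986 (0.930 to 1.05). The Lef1+Bcl11b gate was then higher by 1.52-fold (1.43 to 1.63) and 1.43-fold (1.32 to 1.55). At the step from the progenitor to the Cd3g-low gate both Trbc genes, the 2 members tested there, were at least 2-fold higher, beside 2.76% of tested genes in FL001 and 2.11% in FL002.

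The difference in slope changed the makeup of the beta constant transcripts. Trbc1 made up 7.21% of the Trbc1 and Trbc2 UMIs in the exclusive progenitor gate of FL001, 11.3% in the Cd3g-low gate, 18.8% in the Cd3g gate, 18.4% in the Il2ra gate and 26.4% (25.4 to 27.5) in the Lef1+Bcl11b gate. In FL002 the same shares were 8.49%, 12.3%, 19.1%, 18.5% and 26.5% (24.9 to 28.1). In both libraries the share rose from the Cd3g-low to the Cd3g gate, was level to the Il2ra gate, and rose again. The proportion is a ratio of counts of 2 genes and not of molecules per length.

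**Figure D2:**
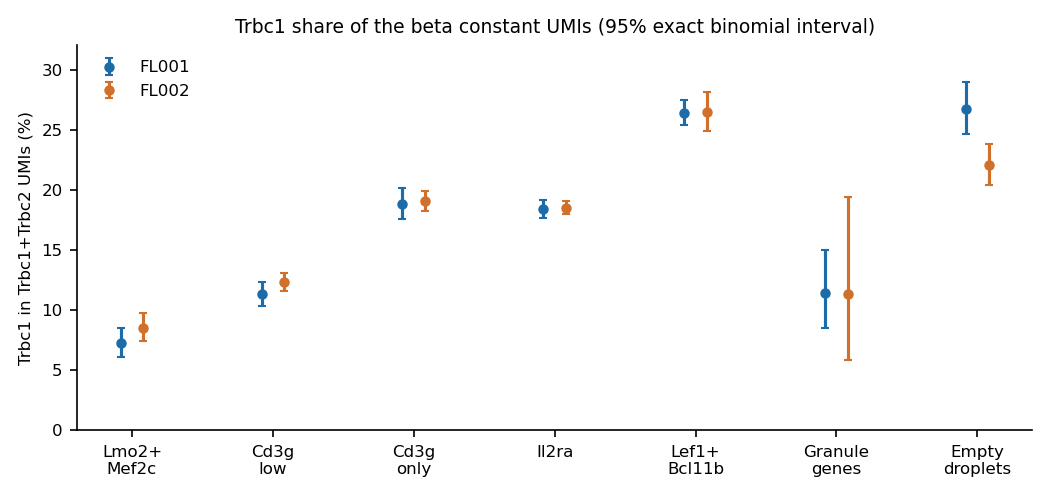
Trbc1 as a percentage of Trbc1 and Trbc2 UMIs in the 5 exclusive gates, in cells with granule genes and in empty droplets of at most 100 UMIs, for each library, with 95% exact binomial intervals. Over the gates the percentage goes from 7.21 to 26.4 in FL001 and from 8.49 to 26.5 in FL002, and the granule gene cells lie at 11.4 and 11.3.

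The constant regions of the pair are near copies at their 5′ end, so whether a read can tell them apart depends on its position in the transcript. Over the first 200 bases of the GENCODE M21 transcripts the 2 genes are identical, over bases 501 to 600 they share 40% of bases, and none of the 251 windows of 50 bases in the last 300 bases of Trbc1 occurs in Trbc2. The stretch below, bases 361 to 450 of both transcripts, is shown because there the sequences begin to part, with the 10 differing bases in capitals.
Trbc1: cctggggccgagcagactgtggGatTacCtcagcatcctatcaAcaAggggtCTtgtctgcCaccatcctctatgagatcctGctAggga
Trbc2: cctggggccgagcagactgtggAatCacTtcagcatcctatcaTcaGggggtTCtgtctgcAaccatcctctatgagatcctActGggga
The libraries were sequenced from the 3′ end, where the transcripts differ. How many reads fell into the shared part was not tested, and the division between Trbc1 and Trbc2 is uncertain to that extent.

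Per cell, most cells of the Lef1+Bcl11b gate carried both constant transcripts, 247 of 357 in FL001 (69.2%) and 159 of 250 in FL002 (63.6%). A further 29.4% and 34.8% had Trbc2 alone, 1 and 2 cells had Trbc1 alone, and 4 and 2 cells had neither. Trbc1 exceeded Trbc2 in 40 cells (11.2%) of FL001 and in 33 cells (13.2%) of FL002. The count per positive cell had a median of 12 UMIs of Trbc2 and 5.5 of Trbc1 in FL001, and of 7 and 4 in FL002.

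Dntt and Trac were almost undetected. Dntt had 2 UMIs in 2 cells of FL001, both in the Lef1+Bcl11b gate, and 0 UMIs in the 4100 kept cells of FL002, which allows a share of cells with a Dntt UMI of up to 0.0732% (3 counts of the total). Trac had 1 UMI in 1 cell of FL001 and 0 UMIs in FL002. No fold change is given for either gene.

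The segments that precede the constant genes were rare as well. Of 35 Trbv genes listed, 11 had a UMI in kept cells of FL001 and 12 in FL002, with 181 and 261 UMIs in all. Trbv12-2 (109 and 176 UMIs) and Trbv13-2 (48 and 47 UMIs), named after their values were seen, held most of these. The summed Trbv level in the exclusive gates, from progenitor to Lef1+Bcl11b, was 1.99, 9.79, 12.5, 21.0 and 11.1 CPM in FL001 and 3.02, 12.3, 13.9, 15.97 and 13.8 CPM in FL002. Trbv transcripts thus rose with Trbc2 at the Cd3g-low gate, and their summed value was highest in the Il2ra gate. No interval was made for the sums. For Trbv12-2 alone, the Il2ra and Lef1+Bcl11b gates held 12.9 CPM (9.82 to 16.6) and 5.92 CPM (3.45 to 9.47) in FL001. In FL002 they held 10.6 CPM (8.47 to 13.2) and 9.76 CPM (5.04 to 17.1), where the intervals overlap. Of the 14 Trbj genes 1 had a single UMI in each library, the 2 Trbd genes and the 60 Traj genes had 0 UMIs, and the 128 Trav genes had 20 and 22 UMIs in all. Transcripts counted from their 3′ end are seldom read as far as a V segment.

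Detection in single cells followed the summed levels but was limited by depth. In the Lef1+Bcl11b gate of FL001 Rag1 was detected in 26.1% of cells (21.6 to 30.9), Rag2 in 15.7% (12.1 to 19.9), Ptcra in 55.2% (49.9 to 60.4), Trbc1 in 69.5% (64.4 to 74.2) and Trbc2 in 98.6% (96.8 to 99.5). In FL002 the shares were 28.0% (22.5 to 34.005), 14% (9.95 to 18.9), 58.4% (52.0 to 64.6), 64.4% (58.1 to 70.3) and 98.4% (96.0 to 99.6). With every cell thinned to 1500 UMIs the same 5 genes were found in 9.24%, 3.92%, 29.1%, 49.3% and 89.1% of cells in FL001 and in 11.2%, 4.8%, 37.6%, 48.4% and 88.4% in FL002. Cells with Rag1 had a median of 1 UMI of it in both libraries, and cells with Ptcra a median of 3 UMIs in FL001 and 2 in FL002. A cell without a UMI is thus not shown to lack the transcript.

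**Figure D3:**
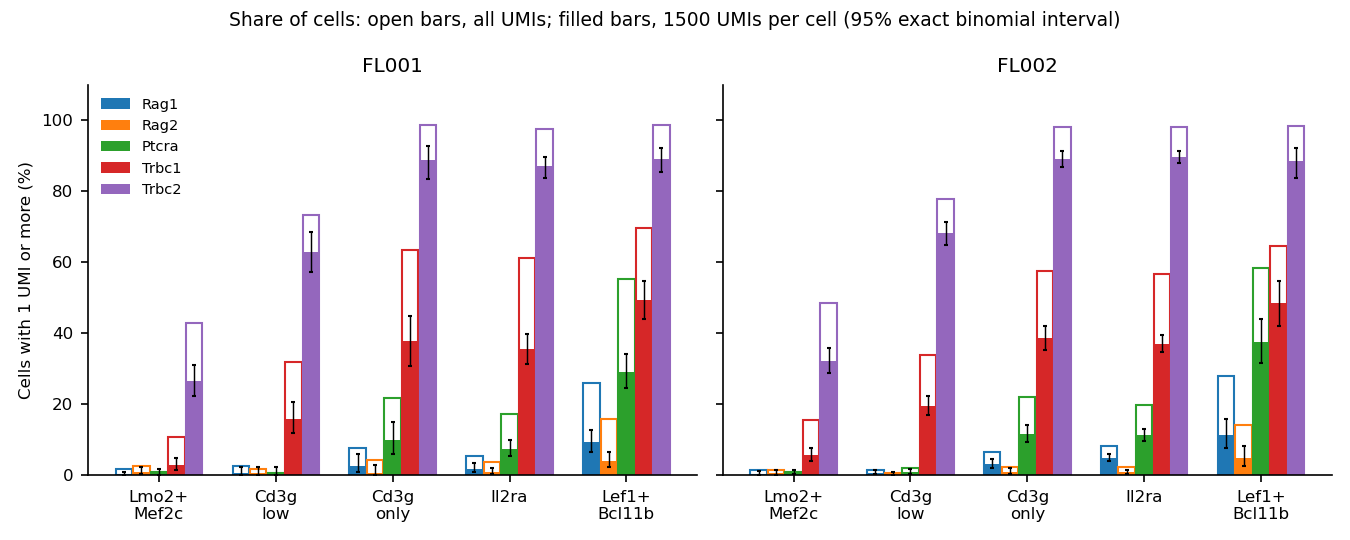
Percentage of cells with at least 1 UMI of each of 5 genes in the 5 exclusive gates of each library, with open bars for all UMIs and filled bars for cells thinned to 1500 UMIs, whose lines are 95% exact binomial intervals. In the Lef1+Bcl11b gate Trbc2 reaches 98.6% and 98.4% of cells at full depth and Rag2 15.7% and 14%.

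The progenitor gate, by contrast, had Rag1 in 1.87% of cells in FL001 and 1.52% in FL002, Rag2 in 2.34% and 1.38%, and Ptcra in 0.935% and 0.691%. Trbc1 was found there in 12.6% and 16.7% of cells and Trbc2 in 43.9% and 50%. Thinned, Trbc2 was in 27.3% and 33.3% of progenitor cells.

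Cells with granule genes of granulocytes and monocytes were set beside the progenitor gate. They were chosen as a set thought to lack these members, and how much of their count is free RNA was not tested. They were 156 cells in FL001 (median 9850.5 UMIs) and 150 in FL002 (median 7468 UMIs), deeper than the progenitor gate (medians 8014.5 and 5649.5 UMIs). Of these cells 128 and 113 are themselves in the progenitor gate, so the 2 sets overlap. Trbc2 was in 30.1% and 27.3% of them, at 223 and 76.2 CPM, and Trbc1 in 12.2% and 6.67%, at 28.8 and 9.75 CPM. Rag1 was in 1.28% and 0% of them, Rag2 in 3.21% and 0%, and Ptcra in 0% and 1.33%. For the genes at 0, a count of 0 allows a share of cells with a UMI of up to 1.92% in FL001 (Ptcra) and 2% in FL002 (Rag1 and Rag2). Progenitor shares of Rag2 in FL001 and of Ptcra in FL002 were at or below those of the granule gene cells. Within the exclusive progenitor gate Rag2 was in 4 of 7 cells with Rag1 (57.1%, 18.4 to 90.1) and in 6 of 402 without (1.49%) in FL001, and in 1 of 9 (11.1%, 0.281 to 48.2) and 9 of 677 (1.33%) in FL002. Whether these UMIs came from free RNA was not tested.

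Droplets with at most 100 UMIs, which hold free RNA, contained 1350 CPM of Trbc2 in FL001 and 1634 CPM in FL002, 493 and 463 CPM of Trbc1, 57.3 and 56.9 CPM of Ptcra, 11.02 and 21.4 CPM of Rag1, and 13.2 and 5.34 CPM of Rag2. Among the Trbc UMIs of these droplets Trbc1 made up 26.7% and 22.1%, and among those of the granule gene cells 11.4% and 11.3%. Both Trbc transcripts thus occurred in droplets without a cell and in cells with granule genes, and the low end of their range is uncertain to that extent.

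Within the progenitor gate Trbc2 was not evenly spread. Progenitor cells with granule genes had 159 CPM of Trbc2 in FL001 (128 cells) and 60.2 CPM in FL002 (113 cells), while those without had 750 CPM (300 cells) and 699 CPM (611 cells). The cells with the stem cell factors Meis1, Hlf or Mecom had 362 and 310 CPM, against 689 and 735 CPM in the rest of the gate. Trbc1 was ordered in the same way, at 19.5 against 82.5 CPM and 37.4 against 67.0 CPM for the stem cell factors.

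Rag1 and Rag2 in the progenitor gate lay mostly in cells with B lineage genes. Cells with Ighm, Ebf1, Cd79b, Pax5 or Cd79a held 9 Rag1 UMIs against 2 in the other progenitor cells of FL001, and 11 against 2 in FL002, or 4.08 against 1.33 CPM and 5.83 against 0.846 CPM. For Rag2 the counts were 8 against 3 and 11 against 3 UMIs. These counts are small, and the intervals of the 2 sets of cells overlap for both genes in each library. The sets were similar in number of cells (226 against 202) in FL001 and unequal (300 against 424) in FL002. In FL001 the cells with B lineage genes also held more UMIs in all.

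B lineage progenitors also use the recombinase and can carry Lef1, so their genes were counted at the other end too. In the Lef1+Bcl11b gate 21 cells of FL001 and 11 of FL002 had a UMI of Igll1, Vpreb1, Vpreb3, Ebf1, Pax5 or Cd79a. In each library 2 of these cells had at least 3 such UMIs, and they held 111 of the 133 in FL001 and 69 of the 79 in FL002 and 0 UMIs of Cd3g. Without all such cells Rag1 stood at 59.3 and 82.8 CPM and Ptcra at 260 and 315 CPM. A wider list that adds Vpreb2, Ighm and Cd79b, chosen after the values were seen, left 231 cells in FL001 (median 6298 UMIs) and 147 in FL002 (median 3973 UMIs) with none of its genes. These cells held Rag1 at 63.0 CPM (51.9 to 75.7) and 91.0 CPM (69.4 to 117), Rag2 at 24.0 CPM (17.3 to 32.3) and 31.8 CPM (19.7 to 48.7), and Ptcra at 276 CPM (252.0 to 301) and 297 CPM (257 to 342). In the 126 and 103 cells with any of them (medians 8244 and 5413 UMIs) Rag1 was at 43.6 and 77.2 CPM, Rag2 at 27.8 and 42.1 CPM and Ptcra at 205 and 325 CPM. Rag1, Rag2 and Ptcra were thus above their progenitor levels in both sets of cells.

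Rag1, Rag2 and Ptcra were each found more often in cells that had another of them than in cells that did not. In the Lef1+Bcl11b gate of FL001 Rag2 was detected in 33 of 93 cells with Rag1 (35.5%, 25.8 to 46.1) and in 23 of 264 cells without it (8.71%). In FL002 the shares were 17 of 70 (24.3%, 14.8 to 36.0) and 18 of 180 (10%), where the intervals overlap. Ptcra was in 72.0% of cells with Rag1 and 49.2% of those without in FL001, and in 80% and 50% in FL002.

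Total UMIs differed between these sets of cells. Cells with Rag1 had medians of 6037 against 7537.5 UMIs without it in FL001 and 4091 against 4808.5 in FL002, and cells with Ptcra 6312 against 8106.5 and 4460.5 against 4827.5. Cells with Rag2 had 7340.5 against 6806 UMIs and 4411 against 4593. With cells thinned to 1500 UMIs the shares of Ptcra were 54.5% against 26.5% and 57.1% against 35.1%. Those of Rag2 became 6 of 33 cells (18.2%) against 2.47% in FL001, and 4 of 28 (14.3%) against 3.604% in FL002, where the intervals overlap. Ptcra was found in 48 of 56 cells with Rag2 (85.7%) in FL001 and in 29 of 35 (82.9%) in FL002, against 49.5% and 54.4% of cells without. Thinned, it was in 6 of 14 cells with Rag2 (42.9%, 17.7 to 71.1) against 28.6% (23.8 to 33.7) in FL001 and in 5 of 12 (41.7%, 15.2 to 72.3) against 37.4% (31.2 to 43.9) in FL002, where the intervals overlap in both libraries.

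For Trbc1 the splits by Rag1, Rag2 and Ptcra all gave overlapping intervals. It was in 65.6% of cells with Rag1 and 70.8% of those without in FL001, in 61.4% and 65.6% in FL002, and in 68.5% of cells with Ptcra against 70.6% in FL001 and 65.1% against 63.5% in FL002. Split by Rag2, it was in 43 of 56 cells (76.8%, 63.6 to 87.0) against 68.1% (62.5 to 73.3) in FL001 and in 57.1% (39.4 to 73.7) against 65.6% (58.8 to 71.9) in FL002. These shares describe cells of 1 gate in 1 library, and cells of a library are not replicates.

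**Figure D4:**
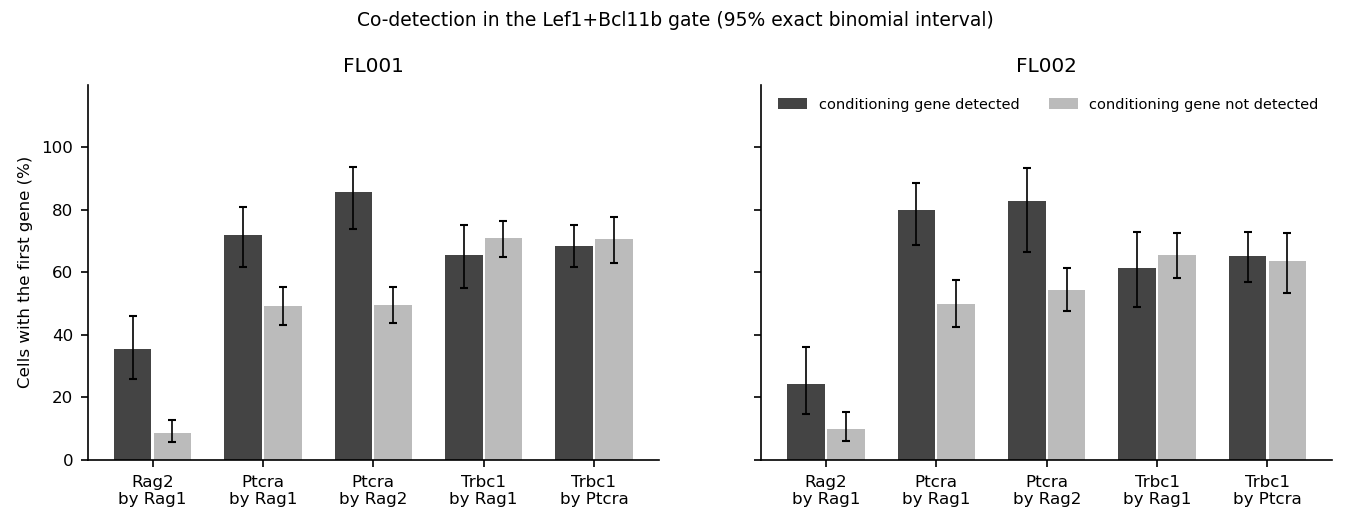
Percentage of Lef1+Bcl11b gate cells with the first gene, split by detection of the second, in each library (bars, with 95% exact binomial intervals). Rag2 and Ptcra are found more often in cells with Rag1, at 35.5% against 8.71% and 72.0% against 49.2% in FL001, and Trbc1 has overlapping intervals, at 65.6% against 70.8%. In FL002 the intervals of Rag2 split by Rag1 overlap.

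Counting over cells, 89.6% of the Lef1+Bcl11b gate in FL001 and 88.4% in FL002 had at least 2 members, mostly through Trbc2 and Trbc1. Rag1 or Rag2 was found in 116 cells of FL001 (32.5%, 27.7 to 37.6) and in 88 of FL002 (35.2%, 29.3 to 41.5). Among cells with Ptcra 88 of 197 (44.7%, 37.6 to 51.9) and 70 of 146 (47.9%, 39.6 to 56.4) had a Rag transcript, and among cells without Ptcra 28 of 160 (17.5%) and 18 of 104 (17.3%). All 3 of Rag1, Rag2 and Ptcra were in 27 cells (7.56%) and 15 cells (6%), while 132 and 86 cells had none of the 3. Thinned to 1500 UMIs, the share of Ptcra cells with a Rag transcript was 21.2% and 20.2%.

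The position of the gate's threshold can be read from the number of Lef1 and Bcl11b UMIs per cell. For Rag1, cells with 0, 1, 2, 3 to 4 and at least 5 such UMIs had 4.97, 19.5, 57.7, 50.4 and 58.8 CPM in FL001 and 9.60, 40.0, 66.7, 82.3 and 142 CPM in FL002. Ptcra went through 15.3, 112, 207, 214 and 298 CPM and through 35.4, 133, 247, 353 and 406 CPM. Just below the threshold, at 1 UMI, both genes were thus already above the cells with none, and just inside it, at 2 UMIs, they were higher again.

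Rag2 went through 3.46, 9.25, 14.4, 30.3 and 27.0 CPM and through 3.06, 13.3, 20.01, 23.5 and 113 CPM. Trbc2 was nearly level, from 1316 CPM without either gene to between 1673 and 1723 CPM with them in FL001, and from 1515 CPM to between 1611 and 1735 CPM in FL002. The class with at least 5 UMIs held 143 cells in FL001 and 34 in FL002, and cells with more UMIs in all reach it more easily.

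Il2ra, the alpha chain of the interleukin 2 receptor, is the surface marker used to stage early T precursors. Its series was drawn on a narrower set of cells than that of Lef1 and Bcl11b, so the series cannot be compared directly. Among cells with at least 3 UMIs of Cd3g outside the Lef1+Bcl11b gate, those with 0, 1, 2, 3 to 4 and at least 5 UMIs of Il2ra had 53.8, 41.8, 51.9, 33.6 and 51.8 CPM of Ptcra in FL001. The FL002 values were 73.8, 92.2, 116, 66.7 and 69.5 CPM. Rag1 ranged from 6.10 to 16.8 CPM and from 16.5 to 32.4 CPM with no order by Il2ra.

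**Figure D5:**
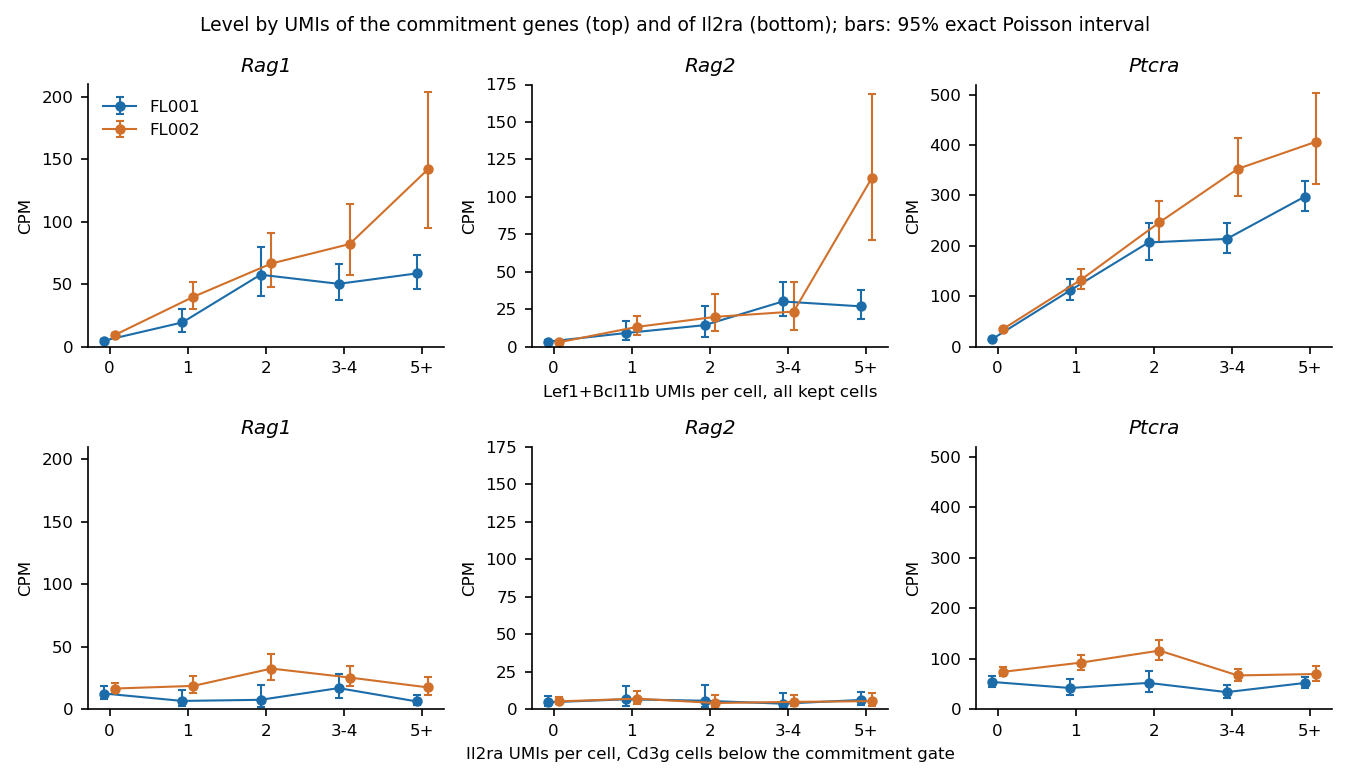
CPM of Rag1, Rag2 and Ptcra by the UMIs of Lef1 and Bcl11b in a cell (top, all kept cells) and by the UMIs of Il2ra (bottom, cells with at least 3 UMIs of Cd3g outside the Lef1+Bcl11b gate), for each library, with 95% exact Poisson intervals. In FL001 Rag1 goes from 4.97 CPM at 0 commitment gene UMIs to 57.7 CPM at 2 UMIs and Ptcra from 15.3 to 207 CPM. Within the narrower set of cells at the bottom, neither is ordered by Il2ra.

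Inside the Lef1+Bcl11b gate Ptcra, Rag1 and Rag2 were no higher in cells with Il2ra than in cells without it. Ptcra stood at 217 CPM (196 to 240) with Il2ra and 300 CPM (269 to 335) without in FL001, and at 262 CPM (225 to 304) and 370 CPM (320 to 424) in FL002. Rag2 stood at 24.2 and 27.3 CPM in FL001 and at 22.0 and 54.9 CPM in FL002. Rag1 stood at 51.8 CPM (41.8 to 63.6) and 61.9 CPM (48.1 to 78.5) in FL001, where the intervals overlap, and at 55.7 CPM (39.4 to 76.4) and 121 CPM (93.4 to 154) in FL002, where they do not. The order was the other way for Trbc2, at 1853 CPM with Il2ra and 1471 CPM without in FL001 and at 1729 and 1656 CPM in FL002. The median depth of the 2 sets was alike in each library (7098 and 7142 UMIs in FL001, 4502.5 and 4708.5 in FL002).

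Cells with both commitment genes had more of these transcripts than cells with Lef1 alone. Rag1 was at 72.8 CPM (59.1 to 88.8) with both and at 40.2 CPM (29.9 to 53.0) with Lef1 alone in FL001, and at 109 CPM (83.2 to 140) and 48.2 CPM (29.4 to 74.4) in FL002. Ptcra was at 340 against 169 CPM and at 362 against 224 CPM. With Bcl11b alone the libraries differed, at 169 CPM of Ptcra in FL001 (36 cells) and 336 CPM in FL002 (67 cells).

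Cells of the gate without UMIs of the cycle genes Mki67, Top2a, Cdk1, Birc5 and Ccnb2 had more Rag1 than cells with at least 3 of these UMIs. The values were 97.6 CPM (69.7 to 133) in 93 cells against 42.1 CPM (33.9 to 51.8) in 209 cells of FL001, and 186 CPM (131 to 257) in 66 cells against 58.4 CPM (43.2 to 77.2) in 139 cells of FL002. Ptcra stood at 481 against 196 CPM and at 413 against 292 CPM. Depth moved with this split, since the cells without cycle genes had medians of 4026 and 2668 UMIs and those with them 9698 and 5861 UMIs. Its part in the result was not tested beyond the thinned shares, which were 12.9% against 5.74% and 22.7% against 5.76% for Rag1 and 40.9% against 23.4% and 43.9% against 35.3% for Ptcra. These thinned shares are given without intervals, and whether they differ beyond counting error was not tested.

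Among Il2ra cells outside the Lef1+Bcl11b gate, those with the delta chain constant gene Trdc had more Rag1 and Ptcra than those without. Rag1 was at 10.6 CPM (6.46 to 16.3) against 4.69 CPM (2.50 to 8.02) in FL001, where the intervals overlap, and at 30.8 CPM (24.6 to 37.9) against 12.3 CPM (9.39 to 15.8) in FL002. Ptcra was at 49.7 against 29.9 CPM and at 95.1 against 53.9 CPM. Trbc2 was close in both sets, at 1821 against 1763 CPM and at 1923 against 1853 CPM. In the Lef1+Bcl11b gate itself the split by Trdc gave overlapping intervals for Rag1 in both libraries (64.6 and 46.5 CPM in FL001, 99.5 and 76.5 CPM in FL002).

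Innate lymphoid marker cells, which share early genes with T precursors, had a mixed picture. The 97 and 99 such cells held Trbc2 at 1124 and 1263 CPM and Trbc1 at 494 and 469 CPM. They had less Ptcra (54.9 and 72.5 CPM) and Rag1 (11.4 and 14.1 CPM) than the Lef1+Bcl11b gate. These cells were picked by their summed UMIs of Id2, Zbtb16, Gzmc, Il22, Ncr1 and Klrd1, with no limit on the gate genes. The set can thus include T precursors and cells of the Lef1+Bcl11b gate, where Id2 was at 177 and 193 CPM.

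Most of the tested genes for rejoining the cut ends did not move as the recombinase did. Of 12 genes of this group 11 are in the tables and 8 had at least 10 CPM in either end gate. Of these only Lig4, the ligase of the pathway, was at least 4-fold higher in the Lef1+Bcl11b gate (1 of 8, beside 3.61% and 3.3% of all tested genes), from 0.810 CPM (3 UMIs) to 13.9 CPM in FL001 and from 1.88 to 11.4 CPM in FL002. Xrcc6 and Xrcc5, the end-binding Ku proteins, went from 50.7 to 96.4 CPM and from 29.4 to 50.5 CPM in FL001, and from 45.2 to 84.6 CPM and from 26.1 to 43.9 CPM in FL002. Hmgb1, a DNA-bending cofactor of the recombinase, was at 761 and 802 CPM in the end gates of FL001 and at 896 and 928 CPM in FL002. The median log2 ratio of the group was 0.42 and 0.29.

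The other receptor chains were also higher in the Lef1+Bcl11b gate than in the progenitor gate. All 7 of the listed genes tested were at least 4-fold higher in each library, beside 3.61% and 3.3% of all tested genes, with a median log2 ratio of 4.34 and 5.07. Cd3d and Cd3e, signalling chains of the receptor, rose from 3.51 to 637 CPM and from 1.62 to 117.6 CPM in FL001 and from 4.94 to 480.0 CPM and from 3.77 to 127 CPM in FL002. The gamma chain constant gene Tcrg-C1 rose from 36.4 to 712 CPM and from 27.3 to 518 CPM, and Trdc from 1.62 to 137 CPM and from 1.65 to 140 CPM. Cd3d, Cd3e, Cd247 and Trdc were under 10 CPM in the progenitor gate and entered only through the Lef1+Bcl11b gate, which partly or fully set their calls. From the Il2ra to the Lef1+Bcl11b gate, as drawn, Cd3d went from 352 to 637 CPM and from 280 to 480 CPM. Tcrg-C2 went from 519 to 501 CPM and from 512 to 410 CPM.

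Genes that follow a successful beta chain in the thymus were largely absent. Of 7 such genes 2 could be tested. Cd28, a costimulatory receptor, was the 1 at least 4-fold higher (5.13 to 42.5 CPM and 6.35 to 43.1 CPM), beside 3.61% and 3.3% of all tested genes. It was under 10 CPM in the progenitor gate and entered only through the Lef1+Bcl11b gate, which partly set its call. Cd27, the other gene tested, was at 131 and 113 CPM in the end gates of FL001 and at 140 and 170.0 CPM in FL002. Cd8a had 2 UMIs in the Lef1+Bcl11b gate of FL001 and 0 in FL002, and Cd8b1 had 0 in both.

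Of 11 regulators with known roles at these loci, Gata3, Ets1 and Hes1 were at least 4-fold higher in both libraries, and Tcf12 and Notch1 in FL002 as well, beside 3.61% of all tested genes in FL001 and 3.3% in FL002. Tcf12, an E protein, went from 53.7 to 154 CPM in FL001 and from 42.1 to 185 CPM in FL002, while Tcf3, which encodes the E proteins E12 and E47, was at 179 and 141 CPM and at 155 and 161 CPM. Notch1, the receptor for DL4, went from 68.5 to 246 CPM and from 66.4 to 267 CPM. Ikzf1, the Ikaros factor, was at 102 and 94.0 CPM in FL001 and at 95.6 and 107 CPM in FL002. Ets1 was under 10 CPM in the progenitor gate of FL001 and was tested there only through the Lef1+Bcl11b gate. The median log2 ratio of the regulators was 0.87 and 0.96.

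Of the B-cell counterparts of the pre-receptor and their regulators, 5 of 9 genes were tested. At least 4-fold higher were 0 of these 5, beside 3.61% of all tested genes in FL001 and 3.3% in FL002. A count of 0 among 5 genes cannot be told from that share. Cd79b, a signalling chain of the B-cell receptor, was at least 4-fold lower (54.0 to 13.2 CPM and 46.8 to 8.14 CPM), beside 3.36% and 3.08%. Ighm, the heavy chain constant gene, was at 178 and 88.7 CPM in the end gates of FL001 and at 121 and 126 CPM in FL002. From the Il2ra gate, as drawn, to the Lef1+Bcl11b gate the levels of Ebf1, Igll1, Vpreb1 and Ighm, named after their values were seen, were higher. Ebf1, a B lineage factor, went from 1.24 to 15.3 CPM in FL001 and from 1.79 to 12.2 CPM in FL002. Igll1 and Vpreb1, the surrogate light chain, went from 1.40 to 12.2 CPM and from 5.75 to 11.1 CPM in FL001 and from 2.50 to 23.6 CPM and from 5.49 to 21.2 CPM in FL002, and Ighm from 34.5 to 88.7 CPM and from 49.5 to 126 CPM. The 2 cells rich in B-cell genes held 37 of the 44 Ebf1 UMIs, 31 of the 35 Igll1 UMIs and 84 of the 255 Ighm UMIs of the gate in FL001, and 11 of 15, 27 of 29 and 15 of 155 in FL002. Without these 2 cells Rag1 was at 55.7 and 83.8 CPM and Rag2 at 25.6 and 36.96 CPM.

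Likeness of pattern was measured by Pearson's r of log2(CPM + 5) over 10 points, the 5 exclusive gates in 2 libraries, among 5966 genes. The points share libraries and gate genes, so r is a description. For Ptcra the most alike were Arpp21 (0.996) and Agfg1 (0.993), for Rag1 Carkd (0.992) and Mtf2 (0.987), and for Rag2 Fam173a (0.976) and Tubb2b (0.970). Trbc1 was most like Gata3 (0.994) and Gzma (0.993), and Trbc2 most like Nkg7 (0.997) and Serpinb6b (0.989). Many genes share these shapes, with 272 at an r of at least 0.9 with Ptcra, 299 with Trbc1 and 65 with Rag2. Among the members r was 0.9504 for Rag1 and Ptcra, 0.933 for Rag1 and Rag2, 0.952 for Trbc1 and Trbc2 and 0.301 for Rag2 and Trbc2.

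The Lef1+Bcl11b gate, with 19.97% and 6.10% of kept cells, held 68.1% of all Rag1 UMIs in FL001 and 30.6% in FL002, 60.3% and 37.2% of Rag2 UMIs and 71.7% and 31.0% of Ptcra UMIs. It held 35.9% and 10.95% of Trbc1 UMIs and 22.9% and 6.39% of Trbc2 UMIs. In FL002 most Rag1 and Ptcra UMIs therefore came from cells outside the gate, although their CPM within the gate was at least as high as in FL001.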

How the data were processed

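Cells of 2 droplet libraries were made with 10X Chromium, sequenced from the 3′ end and passed through CellRanger by the authors, per the study's methods. The authors deposited the raw UMI counts of every barcode, neither scaled nor filtered to cells; the genome build named in the submitters' processing notes is mm9, and the CellRanger version is not given in the sources used here. The tables held 16320118 UMIs in FL001 and 22651783 in FL002. No coordinates were taken from the tables. Promoters came from RefSeq (GRCm38.p6) and transcripts and overlaps from GENCODE M21, which differ from the build of the counts, and were matched by symbol.

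Of the barcodes with at least 1500 UMIs (1824 in FL001 and 4113 in FL002), 3 and 0 had too few genes and 33 and 13 too many mitochondrial UMIs. Kept cells had 1559 to 27025 UMIs in FL001 and 1510 to 17589 in FL002. Scrublet in scanpy 1.11.5 marked 0.392% and 0.220% of kept cells, too few for a working caller, so doublets were kept and removal of the highest 5% of scores was an alternative. UMIs were summed by gate and scaled to CPM. Intervals used scipy 1.17.1. Genes with at least 10 CPM in either gate were compared by ratio, a gate with under 3 UMIs being set to 3. A gene under 10 CPM in 1 gate thus entered through its level in the other. For thinning, 1500 UMIs were drawn from each cell without replacement. The scripts were tested on simulated data. The list, the gates and the gene lists were chosen with earlier results of these data known. Values are given for list genes with at least 20 CPM in some gate in both libraries. They are also given for genes that make up a count of 5 or fewer and for Polm, all named after their values were seen. Likeness names the 2 genes with the largest r. Alternatives changed the cell filter, the gate thresholds, the overlap of gates, depth, scaling, doublets, the CPM minimum and the fold.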

Additional observations from a re-analysis of the deposited data

Results flagged for a closer look

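Dntt gave a signal outside the kept cells of FL002. There were 7 UMIs of Dntt in 7 barcodes of 1 to 5 UMIs each, beside 0 UMIs in all 4113 barcodes with at least 1500 UMIs and 0 in the 340 barcodes with over 100 and under 1500 UMIs. It was singled out because these barcodes enter no comparison, and they hold too few UMIs to be placed in a gate. In FL001 the droplets with at most 100 UMIs held 0 UMIs of Dntt, and its 2 UMIs lay in kept cells of 3356 and 4708 UMIs.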

How the results depend on the processing

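Of 320 combinations of result and alternative, 58 of them chosen after seeing the data, 259 moved by less than the counting interval (counts by at most 1.5 times) and 61 moved by more. Only the 110 log2 ratios of members between the end gates have a direction that could change, and all stayed above 0. A member count of 4 or 5 stays within 1.5 times of the other. Between the end gates 4 members were at least 4-fold higher in each library, and 5 with gate thresholds raised by 1 UMI or a 2-fold limit, and 4 under the others. They were not always the same members, since with gates redrawn on thinned counts Rag2 in FL001 fell below 4-fold (log2 1.52) and Trbc2 rose above it (log2 2.99). The members highest in the Lef1+Bcl11b gate numbered 4 in each library under each alternative that gave this count. Only members with at least 3 UMIs in that gate were counted. The share of all genes that are highest there was not counted, so whether 4 is unusual is not known. The ratio of Ptcra depended most on the alternative, with a log2 range of 4.82 to 8.21 around 7.53 in FL001 and of 5.99 to 8.21 around 8.04 in FL002. Rag2 in FL001 ranged from 1.52 to 3.33 around 3.10.

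Fewer UMIs per cell lowered the counts of detected genes by construction. The share of Lef1+Bcl11b cells with at least 2 members went from 89.6% to 63.3% in FL001 and from 88.4% to 68% in FL002 with cells thinned to 1500 UMIs, and to 64.8% and 80% with gates redrawn on thinned counts. With gate thresholds raised by 1 UMI it was 93.5% in FL002, and with Rag1, Rag2 and Ptcra alone counted, an alternative chosen after seeing the data, it was 26.3% and 28.8%. The share of Ptcra cells with a Rag transcript went from 44.7% to 21.2% thinned and 23.1% redrawn in FL001, and from 47.9% to 20.2% and 27.3% in FL002. Genes at least 4-fold higher numbered 288 in FL001 and 260 in FL002, 107 and 99 with a minimum of 50 CPM, 436 and 478 with a minimum of 1 UMI, and 184 in FL001 with gates redrawn on thinned counts. The last 3 settings test other sets of genes.

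No paired analysis was possible because the libraries share no stated condition that differs between them. With 1 library for each set of cells there was no replicate to leave out, and depth limits single-cell shares of Rag1 and Rag2, whose positive cells mostly hold 1 UMI.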
